A study of Mus musculus with 2 samples.

Results

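Vascular calcification inhibitors were followed as a set of 6 genes (Mgp, Ahsg, Fetub, Ank, Enpp1 and Tnfrsf11b) among the 28000 features of 2 droplet single-cell RNA libraries of mouse aortic smooth muscle cells (SMCs). The genes were listed by name with earlier KO and Control results of the same cells in view, so their KO to Control ratios are a description and support no claim about the set. All 6 were present in both matrices. The library labelled KO came from male Tsc1 fl/fl, Myh11-CreERT2, mT/mG mice, in which the recombinase is meant to delete Tsc1 in SMCs. The library labelled Control came from male Tsc1+/+, Myh11-CreERT2, mT/mG mice. Both were C57BL/6, received tamoxifen at 1.5 weeks of age and were 24 weeks old when the thoracic aorta was taken. In both, CreERT2 under the Myh11 promoter also switches the mT/mG reporter to membrane eGFP, so the sorted cells are SMCs that carried Myh11 at the time of tamoxifen and whatever those cells became. The labels do not state how many animals were pooled.

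Mineral can deposit in an artery wall when calcium phosphate crystals grow on elastin and collagen, and several secreted or membrane proteins hold this back. Matrix Gla protein (Mgp), a small vitamin K-dependent protein of cartilage and of the artery wall, binds mineral and restrains bone morphogenetic proteins. Mice without it calcify their arteries soon after birth. Fetuin-A (Ahsg) is a plasma protein of the cystatin superfamily, made mostly by the liver, that keeps calcium phosphate in solution as colloidal particles, and Fetub encodes the related fetuin-B. Enpp1 makes extracellular pyrophosphate, an inhibitor of crystal growth, from ATP, and Ank is the membrane protein through which ATP and pyrophosphate reach the outside of the cell. Tnfrsf11b encodes osteoprotegerin, a decoy receptor that keeps the cytokine RANKL (Tnfsf11) from its receptor RANK (Tnfrsf11a). Mice without osteoprotegerin lose bone and calcify large arteries.

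Cells with at least 5 eGFP UMIs (unique molecular identifiers, 1 per captured molecule), at least 500 genes and no more than 10% mitochondrial UMIs were kept. These were 1919 of 2097 deposited KO cells, with 30778165 UMIs and a median of 15012 per cell. In the Control library they were 1692 of 2095 cells, with 20011501 UMIs and a median of 11665. Only 5 KO cells and 20 Control cells held 1 to 4 eGFP UMIs. All 9 SMC markers were above 10 CPM (counts per 1e6 UMIs) in both libraries, with a summed level of 23546 CPM in KO cells and 49414 CPM in Control cells. Tsc1 itself had 8.55 CPM in KO cells and 9.54 CPM in Control cells, a ratio of 0.895 (95% interval 0.740 to 1.08). The labels state neither the exons that the floxed allele loses nor the part of the transcript that was counted, so this count does not check the genotype label. eGFP had 3592 CPM in KO cells and 5660 CPM in Control cells. A further 12 KO cells and 330 Control cells passed the other limits with 0 eGFP UMIs and carried immune markers. Their summed macrophage list was at 5635 CPM in the KO library and 17195 CPM in the Control library. The 12 KO cells also held fibroblast markers at a summed 1454 CPM, against 206 CPM in the 330 Control cells. The 330 eGFP-negative Control cells had 0 UMIs of 4 Y-linked genes, which allows up to 2.27 CPM, against 3276 UMIs in the eGFP-positive Control cells. These Control cells held UMIs of all 9 SMC markers, at a summed 185 CPM. Whether this is free RNA of the aortic cells was not tested. The eGFP-negative values do not measure such RNA and are given as those of other cells only. The libraries shared 16 cell barcodes. There was 1 library per genotype, so no difference below has a test or a replicate check, and every interval covers counting error only.

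Of the 6 genes, 5 were higher in KO cells by 1.5-fold or more, and Enpp1 was not. Across the 8113 genes at 10 CPM or more in at least 1 library, 13.2% were at least 1.5-fold higher in KO cells and 11.4% at least 1.5-fold lower. The genes had been listed with these ratios in view, so nothing is read from the comparison of 5 of 6 with that share. The median ratio of 2393 genes at 50 CPM or more in both libraries was 0.971, or -0.04 on the log2 scale.

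Mgp was the most abundant of the set in UMIs. It is encoded on chromosome 6 (136872435 to 136875823, minus strand, build mm10). Mgp had 1263779 UMIs, or 41061 CPM, in KO cells and 106371 UMIs, or 5315 CPM, in Control cells. It alone made up 4.11% of all UMIs of the KO cells and 0.532% of those of the Control cells. The KO to Control ratio of its level was 7.72 (7.68 to 7.77). Every kept cell of both libraries held at least 1 Mgp UMI, so the libraries differed in the amount per cell and not in the share of cells with the transcript. In eGFP-negative Control cells Mgp had 19.0 CPM (25 UMIs), and 7.27% of these cells held a UMI of it. The 12 eGFP-negative KO cells, which also held fibroblast markers, had 673 CPM of Mgp (37 UMIs).

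To set cells of unequal depth side by side, each cell was thinned to 5000 UMIs, which left out 17 KO cells and 90 Control cells. The median KO cell then held 111 Mgp UMIs and the median Control cell 19. The 5th to 95th percentiles ran from 24.1 to 568 UMIs in KO cells and from 6 to 69 in Control cells. The distributions overlapped in part: 1222 of 1902 KO cells (64.2%) were above the Control 95th percentile, 42 (2.21%) were at or below the Control median, and 23 of 1602 Control cells (1.44%) were above the KO median. The highest Control cell held 352 Mgp UMIs, and 291 KO cells (15.3%) held more.

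Contractile state was measured in each cell as the share of UMIs from 15 genes of the contractile apparatus (Acta2, Tagln, Myh11, Cnn1 and 11 others), with the 6 inhibitor genes left out of the total. The median share was 2.45% in KO cells and 5.38% in Control cells. KO cells ranged from 0.150 to 9.56% and Control cells from 0.623 to 10.9%. Each library was split into 3 tertiles of this share, at 1.53 and 3.40% in the KO library and at 4.63 and 6.16% in the Control library. The tertiles are ranges of a score and not cell types: 168 and 150 KO cells, and 184 and 164 Control cells, lay within 0.25 points of these limits.

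In the KO library Mgp had 65108 CPM in the low tertile, 33460 CPM in the middle and 23070 CPM in the high tertile. The low over high ratio was 2.82 (2.81 to 2.84). Control tertiles were close together, with 5910 CPM in the low, 5055 CPM in the middle and 5097 CPM in the high tertile, a ratio of 1.16 (1.14 to 1.18). Even the high KO tertile, at a median contractile share of 4.73%, therefore held Mgp above every Control tertile. Per thinned cell the median was 233 Mgp UMIs in the low KO tertile, 87.5 in the middle and 65 in the high, and 18, 18 and 19 in the low, middle and high Control tertiles. KO cells above the highest Control cell were 205 in the low tertile, 66 in the middle and 20 in the high.

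**Figure D1:**
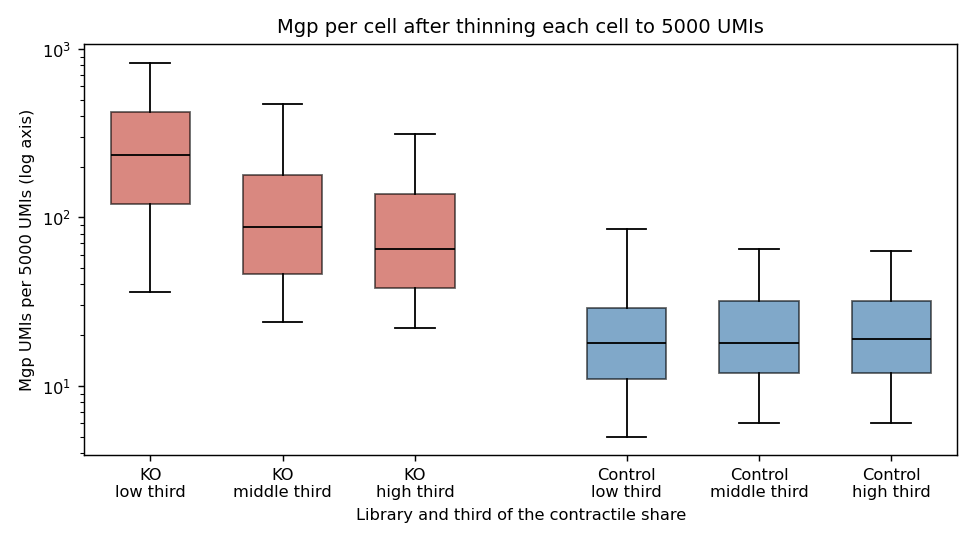
Mgp UMIs per cell after each cell was thinned to 5000 UMIs (log axis), for the low, middle and high tertiles of contractile share, KO library on the left and Control library on the right. Boxes give the median and quartiles over cells, and whiskers the 5th to 95th percentiles: the KO medians of 233, 87.5 and 65 all lie above the Control medians of 18, 18 and 19.

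Ahsg and Fetub, the fetuin genes, were almost absent from Control cells. They lie side by side on chromosome 16, Ahsg at 22891277 to 22899449 and Fetub at 22918334 to 22939778 (mm10, both on the plus strand), with 18.9 kb between them. Ahsg had 2309 UMIs (75.0 CPM) in KO cells and 2 UMIs (0.0999 CPM) in Control cells, a ratio of 751 with an interval of 208 to 6202 that reflects the 2 Control UMIs. Fetub had 4029 UMIs (131 CPM) in KO cells and 18 UMIs (0.899 CPM) in Control cells, a ratio of 146 (92.0 to 246). Neither gene had a UMI in the 12 KO and 330 Control cells without eGFP.

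The fetuin promoters were compared because the genes are neighbours and were seen in the same KO cells. RefSeq promoter windows (build GRCm38.p6, the 250 bases before each transcript start) were on hand for Ahsg, Fetub, Ank and Enpp1, 4 of the 6 genes. The longest run of letters that the Ahsg window shares with that of Fetub is 11 bases. It is shown in capitals within 30 bases of each window, on the plus strand, Ahsg at chr16:22891926-22891955 and Fetub at chr16:22918330-22918359.
Ahsg: ccagagctgCTGTTTGCAAGgattatttgg
Fetub: tggcgcactCTGTTTGCAAGatataaaagg
The run begins 80 bases before the RefSeq start of Ahsg and 43 bases before the first RefSeq start of Fetub. These starts, and the run, lie inside the annotated gene spans given above, which begin further upstream. A second Fetub window, before a later RefSeq start (22919972 to 22920221), was searched for the motifs below as well. The run was found, on either strand, in 13 of 32851 promoter windows (0.0396%). The run was picked because the windows share it, after the letters were seen, so its rarity is a description and says nothing of a factor that binds there. Motifs were also searched on both strands of the windows of the 4 genes: CACGTG, which 6.02% of all windows hold, TCATGTGA (0.846%), TGANTCA (6.75%), TTGCNNAA (9.56%) and the CArG box (1.47%). TTGCNNAA occurred once in the Ahsg window and once in the Enpp1 window, and no other match was found in these windows. A match is only a match of letters.

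The fetuin transcripts were detected in only a part of the KO cells. After thinning, 238 of 1902 KO cells had an Ahsg UMI (12.5%, 11.1 to 14.1) and 510 had a Fetub UMI (26.8%, 24.8 to 28.9). In Control cells these were 1 of 1602 (0.0624%) and 9 of 1602 (0.562%). In eGFP-negative Control cells they were 0 of 65 for either gene, which allows a share of up to 4.62%, at a median unthinned depth of 3750 UMIs. Without thinning the shares were 21.2% of KO cells and 0.118% of Control cells for Ahsg, and 45.9% and 0.650% for Fetub. In thinned KO cells, the 10% with most Ahsg held 91.3% of its 550 UMIs, and for Fetub this was 67.6% of 1116. For Mgp the same share was 35.6% of 347940 UMIs. Such a share is higher for a rarer transcript even when it is spread evenly, so these values do not compare the spread of the genes.

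Both fetuin genes were concentrated in the KO cells with the lowest contractile share. In the KO library Ahsg had 184 CPM in the low tertile, 25.5 CPM in the middle and 7.19 CPM in the high tertile, a low over high ratio of 25.6 (20.3 to 32.7). Fetub had 268 CPM in the low tertile, 83.6 CPM in the middle and 31.8 CPM in the high tertile, a ratio of 8.42 (7.51 to 9.46). Both Ahsg UMIs of the Control library were in its low tertile. Fetub had 8 UMIs in the low, 8 in the middle and 2 in the high Control tertile, too few to order.

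KO cells with Ahsg held Fetub more often than KO cells without it. In thinned KO cells 151 held UMIs of both genes, 87 of Ahsg only, 359 of Fetub only and 1305 of neither. Of the 510 cells with Fetub, most had no Ahsg UMI. A Fetub UMI was thus present in 63.4% of KO cells with Ahsg and in 21.6% of those without. Cells of the low tertile hold more of both genes, so the shares were also taken within tertiles. In the low tertile they were 71.5% with Ahsg and 41.7% without, and in the middle tertile 54.3% and 17.5%. In the high tertile they were 15.0% and 10.3%, where only 20 cells held Ahsg. Tertiles do not hold the contractile share fixed, and the low KO tertile reached up to 1.53%. Ahsg had 236 CPM in KO cells at 0 to 1% and 54.6 CPM at 1 to 2%, and Fetub had 306 and 169 CPM. Whether the contractile share accounts for the shares within tertiles was not tested.

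**Figure D2:**
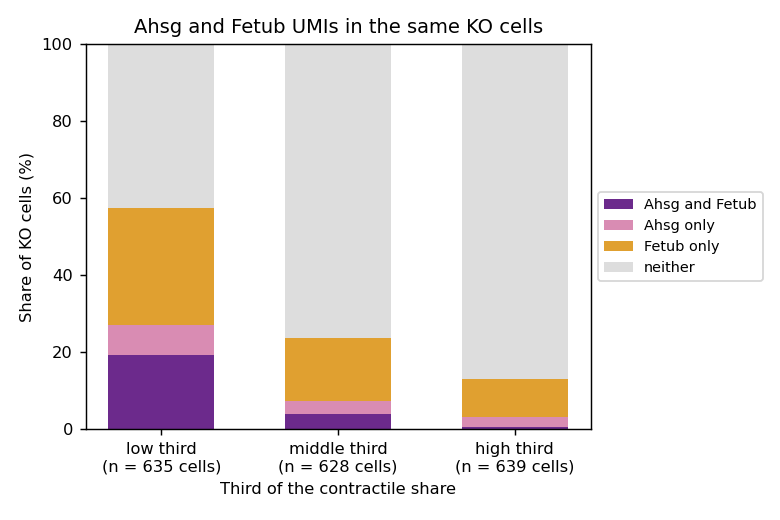
Share of thinned KO cells (%) with UMIs of both fetuin genes, of 1 of them or of neither, stacked for the low, middle and high tertiles of contractile share. Cells with both make up 19.4% of the low tertile, 3.98% of the middle and 0.469% of the high.

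Of the pyrophosphate pair, Ank was higher in KO cells and Enpp1 was level. Ank, the ATP and pyrophosphate exporter, is on chromosome 15 (27466677 to 27594909, plus strand). It had 8588 UMIs (279 CPM) in KO cells and 1109 UMIs (55.4 CPM) in Control cells, a ratio of 5.03 (4.73 to 5.36). The annotated span of Ank overlaps Otulin on the other strand, which had 23.9 CPM in KO cells and 18.9 CPM in Control cells. The labels do not say whether counting used the strand, so reads of the shared stretch cannot be told apart. After thinning, 67.8% of KO cells (65.7 to 69.9) and 22.6% of Control cells (20.6 to 24.7) had an Ank UMI, against 9.23% of the 65 eGFP-negative Control cells. Unthinned, these were 91.7%, 43.7% and 6.67%.

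Enpp1, the ectoenzyme that makes pyrophosphate, is on chromosome 10 (24637914 to 24712159, minus strand). It had 835 UMIs (27.1 CPM) in KO cells and 514 UMIs (25.7 CPM) in Control cells. The ratio of 1.06 had an interval of 0.945 to 1.18, which lies within 1.5-fold in either direction. After thinning, 12.8% of KO cells (11.3 to 14.4) and 12.7% of Control cells (11.1 to 14.4) had an Enpp1 UMI. The unthinned shares of 32.1% of KO cells and 24.3% of Control cells were further apart, at the unequal depths of 15012 and 11665 UMIs per cell.

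Ank followed contractile state more steeply than Enpp1 in KO cells, while in Control cells the low over high ratios of these genes overlapped in their intervals. In the KO library Ank had 383 CPM in the low tertile, 272 CPM in the middle and 178 CPM in the high tertile, a low over high ratio of 2.15 (2.04 to 2.28). Control cells had 73.1, 53.6 and 43.6 CPM in the low, middle and high tertiles, a ratio of 1.68 (1.45 to 1.94). Enpp1 had 30.8, 27.7 and 22.8 CPM in the low, middle and high KO tertiles, a ratio of 1.35 (1.14 to 1.60). In the low, middle and high Control tertiles Enpp1 had 34.7, 24.4 and 19.9 CPM, a ratio of 1.74 (1.40 to 2.17). Without the cells that carry homeobox transcripts, a grouping described below and added after the data were seen, the Control ratios were 1.41 for Ank and 1.33 for Enpp1.

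Tnfrsf11b, which encodes osteoprotegerin, is on chromosome 15 (54250619 to 54278484, minus strand). It had 4650 UMIs (151 CPM) in KO cells and 267 UMIs (13.3 CPM) in Control cells, a ratio of 11.3 (10.0 to 12.9). After thinning, 36.8% of KO cells (34.6 to 39.0) and 5.74% of Control cells (4.65 to 6.997) had a UMI, and 0 of the 65 eGFP-negative Control cells did. Unthinned, the shares were 60.1% of KO cells and 12.2% of Control cells. In thinned KO cells, the 10% with most Tnfrsf11b held 53.8% of its 1282 UMIs, a share that also depends on how rare the transcript is.

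The level of Tnfrsf11b followed contractile state in KO cells and had no clear order across Control tertiles. It had 266 CPM in the low KO tertile, 118 CPM in the middle and 62.2 CPM in the high, a low over high ratio of 4.27 (3.92 to 4.65). Control cells had 13.6, 12.6 and 13.8 CPM in the low, middle and high tertiles, a ratio of 0.985 (0.724 to 1.33). Without the homeobox-positive cells described below, a grouping added after the data were seen, the Control ratio was 1.31. Tertiles were cut within each library, so low tertiles sit at unlike contractile shares (median 0.720% in KO cells and 3.71% in Control cells). Between tertiles of the same rank the KO to Control ratio was 19.5 in the low, 9.39 in the middle and 4.51 in the high tertile.

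**Figure D3:**
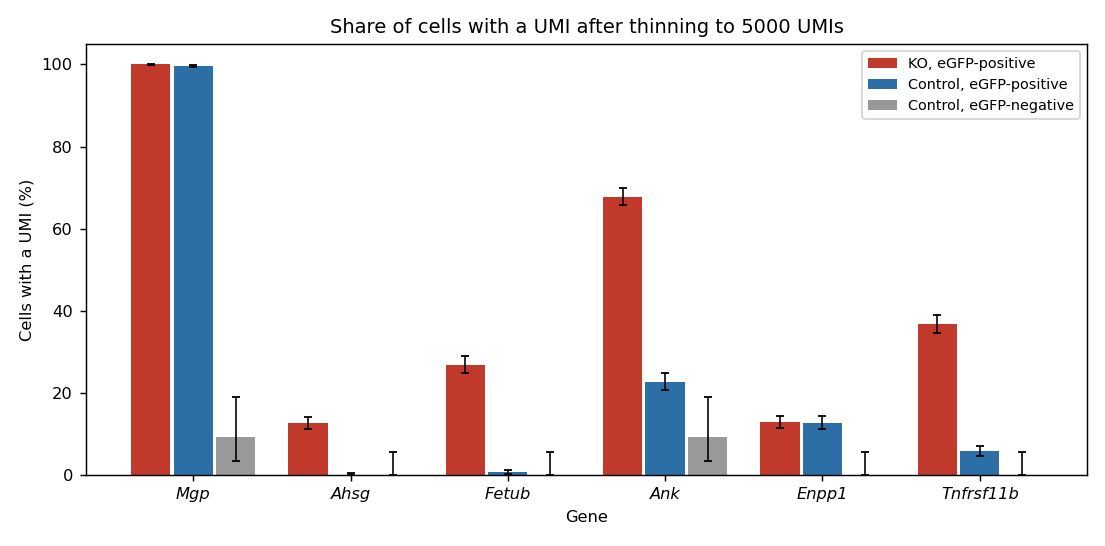
Share of cells with at least 1 UMI of each gene (%) after each cell was thinned to 5000 UMIs, for KO eGFP-positive cells, Control eGFP-positive cells and Control eGFP-negative cells, with exact binomial 95% intervals. Ahsg and Fetub are near 0% in Control cells, Ank is at 67.8% in KO and 22.6% in Control cells, and Enpp1 is at 12.8% in KO and 12.7% in Control cells.

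Counted over the set, low over high ratios were at least 1.5 for 5 genes in the KO library, where 12.3% of 8032 genes at 10 CPM or more were and 8.63% were as much lower in the low tertile. In the Control library they were at least 1.5 for 3 genes (Fetub, Ank and Enpp1). Among 7952 genes at 10 CPM or more there, 15.7% were, and the median gene was 0.18 higher on the log2 scale in the low tertile. Ahsg, with 2 Control UMIs, was left out of the Control count, and Fetub lay below the 10 CPM minimum behind that share. The Fetub ratio there rests on 10 UMIs, and without the homeobox-positive cells described below Ank was at 1.41 and Enpp1 at 1.33, so that 1 gene was left. Median depth was 16047, 14178 and 15203.5 UMIs in the low, middle and high KO tertiles and 9849, 11829.5 and 13633 UMIs in the Control tertiles. Fibroblast markers moved along with the KO tertiles. Their summed level over 8 genes was 2178 CPM in the low tertile, 595 CPM in the middle and 302 CPM in the high, mostly Dcn, Lum and Col1a1. In the Control library it was 678, 456 and 359 CPM in the low, middle and high tertiles. Their part in the results was not tested. Fewer cells with a transcript and less RNA per cell are told apart here only as far as the thinned shares allow.

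KO cells are less contractile than Control cells, so the libraries were also compared at like contractile shares. Bins of 2 to 4%, 4 to 6% and 6 to 8% held at least 50 cells of each library (647 and 342, 349 and 719, 108 and 483 KO and Control cells). The share of genes (10 CPM or above) that were higher in KO cells by 1.5-fold was 10.1%, 9.98% and 12.3% in these bins, and 15%, 14.2% and 12.3% were lower by as much. Of the 6 genes, 5 were at least 1.5-fold higher in KO cells in every one of the 3 bins, and Enpp1 was higher in none. The shares of genes are those of each bin alone, and no share over all 3 bins was taken, so nothing is read from this count. Ahsg, at 6.11 and 7.17 CPM in KO cells at 4 to 6% and 6 to 8%, also lay below the 10 CPM minimum behind the shares there.

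The size of the difference changed along the bins for some genes and not for others. Mgp had 29358 CPM in KO cells and 6074 CPM in Control cells at 2 to 4%, 24175 and 5120 CPM at 4 to 6%, and 15196 and 5519 CPM at 6 to 8%. The ratios were 4.83 (4.76 to 4.90), 4.72 (4.67 to 4.77) and 2.75 (2.71 to 2.80). Tnfrsf11b showed a steeper decline, with KO to Control ratios of 8.13 (5.95 to 11.4), 4.65 (3.73 to 5.84) and 2.49 (1.80 to 3.44). Ank kept nearly 1 ratio throughout, at 3.13, 3.15 and 3.11, with KO levels of 243, 178 and 138 CPM and Control levels of 77.6, 56.4 and 44.5 CPM.

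Ahsg had 177, 35 and 14 UMIs in the KO cells of the 3 bins and 1, 0 and 0 in the Control cells. Its level in KO cells was 18.5, 6.11 and 7.17 CPM. Against a floor of 3 Control counts per bin, the bins with 0 Control UMIs were at least 17.1-fold and at least 15.1-fold higher in KO cells. Fetub had 532, 174 and 48 UMIs in KO cells and 3, 12 and 2 in Control cells, ratios of 61.0 (20.8 to 297), 21.3 (11.9 to 42.0) and 77.6 (20.4 to 659), which overlap in their intervals. Enpp1 was lower in KO cells at 2 to 4%, with 26.3 CPM in KO cells and 37.3 CPM in Control cells, a ratio of 0.705 (0.566 to 0.882). At 4 to 6% and 6 to 8% its ratios were 0.910 (0.732 to 1.13) and 0.935 (0.630 to 1.36).

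**Figure D4:**
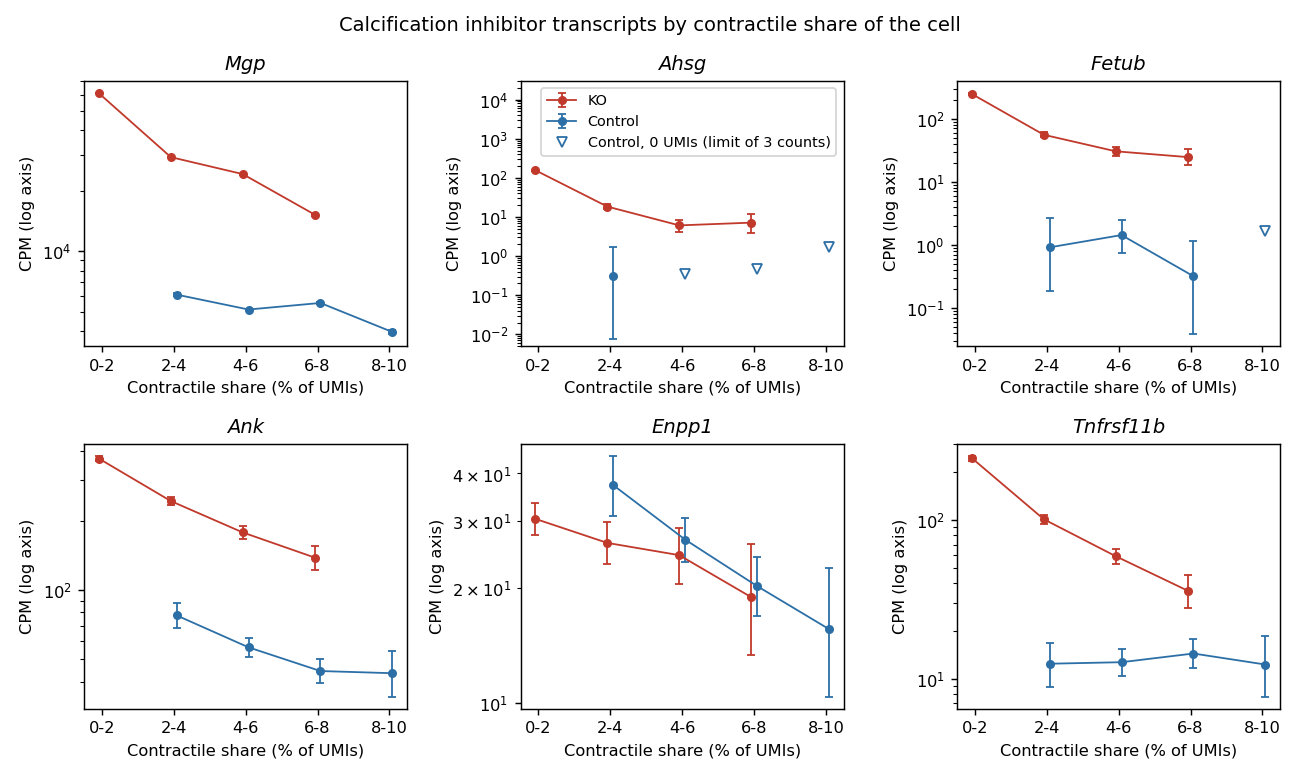
Level of each gene (CPM, log axis) against the contractile share of the cell in bins of 2 percentage points, KO and Control cells, with exact Poisson 95% intervals, for bins with at least 50 cells of the library. Open triangles mark Control bins with 0 UMIs, drawn at the level of 3 counts. The KO points lie above the Control points in all shared bins for 5 genes and at or below them for Enpp1, and only the KO library has 50 cells in the 0 to 2% bin.

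The 0 to 2% bin held 803 KO cells and 14 Control cells, so the least contractile KO cells had almost no Control counterparts. The KO cells of this bin carried 61036 CPM of Mgp, 157 CPM of Ahsg, 246 CPM of Fetub, 372 CPM of Ank and 245 CPM of Tnfrsf11b. Their Enpp1 level was 30.4 CPM (27.5 to 33.5), against 26.3, 24.4 and 19.0 CPM (13.3 to 26.1 for the last) in the KO bins at 2 to 4%, 4 to 6% and 6 to 8%.

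Per cell, the genes varied together to different degrees. Over the 1919 KO cells the Pearson correlation of ln(1 + counts per 10000) was 0.487 between Mgp and Fetub, 0.427 between Ahsg and Fetub and 0.420 between Mgp and Tnfrsf11b. Ank correlated at 0.353 with Mgp, and Enpp1 at 0.02 to 0.09 with the other 5. With the contractile share the values were -0.42 for Mgp, -0.33 for Ahsg, -0.42 for Fetub, -0.41 for Ank, -0.40 for Tnfrsf11b and -0.06 for Enpp1. Over the 1692 Control cells Mgp correlated with the contractile share at 0.01 and with Tnfrsf11b at 0.09. These cells share a library and its depth, so the values are descriptions. In thinned KO cells of the low tertile, Fetub was in 50.3% of cells with Tnfrsf11b and 49.2% of those without. Ahsg was in 27.4% and 26.8%. In the middle tertile these shares were 24.9% and 17.9% for Fetub, and 9.09% and 6.44% for Ahsg. In the high tertile they were 11.0% and 10.3% for Fetub, and 1.29% and 3.72% for Ahsg. Of the 4 genes Ahsg, Fetub, Ank and Tnfrsf11b, thinned KO cells held UMIs of all 4 in 57 cells, of 3 in 243 and of none in 348 of 1902. In Control cells these counts were 0, 1 and 1167 of 1602. Among the KO cells of the low tertile 36.9% held 3 or more, which was 234 of 635 cells.

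Other genes that varied most like each inhibitor over KO cells were picked from 7043 genes with at least 0.2 UMIs per KO cell. For Mgp they were Cst3 (0.674), which encodes the protease inhibitor cystatin C, the adhesion molecule Vcam1 (0.581), Tm4sf1 (0.572), the class I subunit B2m (0.570) and Apoe (0.505), apolipoprotein E. For Ahsg they were the small proteoglycans Lum (0.451) and Dcn (0.445), then Fetub, Cst3 and Sepp1 (0.373), which encodes the selenium carrier selenoprotein P. For Fetub they were Cst3 (0.548), Vcam1 (0.505), Mgp, Sepp1 (0.455) and Dcn (0.441). Ank was most like Mgp, Rnase4 (0.344), Timp2 (0.319) and Ctnnb1 (0.318). Tnfrsf11b was most like Vcam1 (0.461), Fn1 (0.424), which encodes fibronectin, Mgp, Itgb5 (0.345) and Timp1 (0.343). No gene reached 0.3 with Enpp1, whose highest value was 0.151 with Bgn.

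The genes around the members were read for their own levels. Art4, the first protein-coding gene past the end of Mgp, lies on the same strand 14.7 kb away. It had 56.0 CPM in KO cells and 9.29 CPM in Control cells, a ratio of 6.03 (5.18 to 7.05). Its KO level was 85.1 CPM in the low tertile, 53.6 CPM in the middle and 28.2 CPM in the high. On the other side, Arhgdib, a gene known from blood cells, had 66.7 CPM in KO cells and 5.30 CPM in Control cells, a ratio of 12.6 (10.4 to 15.4). It had 1073 CPM in eGFP-negative KO cells and 892 CPM in eGFP-negative Control cells. Macrophage markers in the eGFP-positive cells had a summed 15.2 CPM in the KO library and 17.8 CPM in the Control library.

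Erp27 (ratio 5.29, 2.41 to 13.8) and Pde6h (5.63, 2.82 to 12.8), also near Mgp, were below 10 CPM in both libraries. Smco3 and BC049715 had 11 or fewer UMIs in each library. Over KO cells Mgp correlated at 0.382 with Art4 and at 0.418 with Arhgdib, and over Control cells at 0.057 and 0.031. Arhgdib and Pde6h were named after their values were seen.

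Around the fetuins, Dnajb11 and Tbccd1 were past 1.5-fold higher in KO cells, by far less than the fetuins. Dnajb11, on the Ahsg side, had 85.7 CPM in KO cells and 53.3 CPM in Control cells, a ratio of 1.61 (1.50 to 1.73). Tbccd1, below 10 CPM in both libraries, had a ratio of 2.04 (1.59 to 2.64). On the Fetub side the liver gene Hrg had 0 UMIs in both libraries, as did Kng1, and Kng2 had 15 UMIs in KO cells and 0 in Control cells. Next to Enpp1 lie Ccn2 (2544 CPM in KO cells, 3766 CPM in Control cells) and Enpp3 (1.27 CPM in KO cells, 3.70 CPM in Control cells). Next to Ank lies Fbxl7, with 4 UMIs in KO cells and 2 in Control cells. Next to Tnfrsf11b lie Colec10, with 6 and 0 UMIs in KO and Control cells, and Gm7489, with 0 in both.

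**Figure D5:**
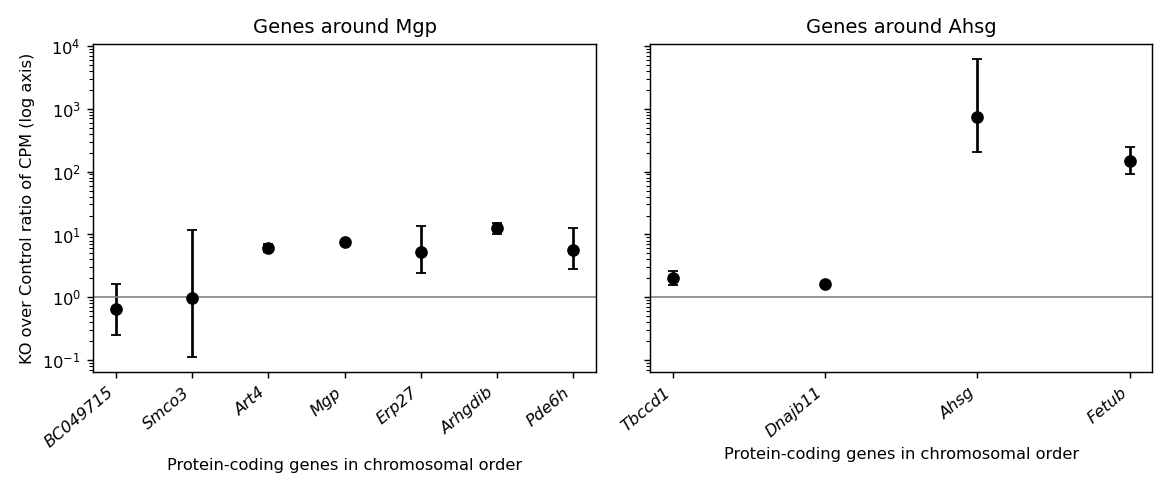
KO over Control ratio of CPM (log axis) with 95% counting intervals for the protein-coding genes around Mgp (left) and Ahsg (right), in chromosomal order, without genes that have 0 Control UMIs. Art4 at 6.03 and Arhgdib at 12.6 stand beside Mgp at 7.72, and Dnajb11 at 1.61 stands beside Ahsg and Fetub at 751 and 146.

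The wider pathways were described with 7 gene lists, read against all genes, of which 13.2% were at least 1.5-fold higher in KO cells and 11.4% lower (6.3% and 4.73% by 2-fold), with a median log2 ratio of -0.001. Among 91 distinct listed genes, 51 were at 10 CPM or more in at least 1 library, and of these 14 were higher and 15 lower. Genes below that minimum were not counted in either direction.

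Of the other genes of pyrophosphate and phosphate handling, 6 of 15 were counted, with 1 higher, 0 lower and a median log2 ratio of 0.22. The higher one was Enpp2, autotaxin, a relative of Enpp1 that makes lysophosphatidic acid, with 122 CPM in KO cells and 47.3 CPM in Control cells, a ratio of 2.59 (2.41 to 2.78). The phosphate importers Slc20a1 and Slc20a2 had ratios of 1.07 and 1.05, and the phosphate exporter Xpr1 1.27. Alpl, the phosphatase that breaks pyrophosphate down, was below the minimum, with 0.780 CPM in KO cells and 3.65 CPM in Control cells. Abcc6, which drives ATP release in the liver, had 6 UMIs in KO cells and 0 in Control cells.

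Matrix Gla protein needs carboxylation by the vitamin K cycle. Of that list and other Gla proteins, 7 of 13 genes were counted, with 1 higher, 1 lower and a median log2 ratio of 0.17. The carboxylase gene Ggcx had 20.0 CPM in KO cells and 24.1 CPM in Control cells, and the vitamin K reductase gene Vkorc1 had 122 and 141 CPM, both within 1.5-fold. Gas6, a Gla protein that activates TAM receptors, was higher, with 779 CPM in KO cells and 357 CPM in Control cells, a ratio of 2.18 (2.12 to 2.24). Nqo1 was lower, at a ratio of 0.617. The near-identical osteocalcin genes Bglap and Bglap2, whose reads may be split between them, had 109 and 167 UMIs in KO cells and 5 and 1 in Control cells, below 10 CPM.

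Of the bone morphogenetic protein (BMP) genes that matrix Gla protein bears on, 17 of 23 were counted, with 2 higher, 6 lower and a median log2 ratio of -0.20. The ligand Bmp4 had 15.2 CPM in KO cells and 4.60 CPM in Control cells, a ratio of 3.31 (2.64 to 4.18). Smad7, an inhibitor within the pathway, was 2.02 times higher (1.94 to 2.11), and Smad6, another, was 2.21 times lower in KO cells. Among the target genes Id1 and Id3 were level, with ratios of 1.01 and 1.06, while Id2 was 2.36 times lower and Id4 3.63 times lower. Gdf10, a relative of BMP3, was 3.53 times lower.

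Of the osteoprotegerin axis, 4 of 7 genes were counted, with 2 higher, 1 lower and a median log2 ratio of 0.94. The ligand Tnfsf11 had 0 UMIs in KO cells and 1 in Control cells. Its receptor gene Tnfrsf11a had 4.48 CPM in KO cells and 27.7 CPM in Control cells, 6.19 times lower, and within the KO library it had 0.832, 3.46 and 9.21 CPM in the low, middle and high tertiles. Tnfrsf11a thus ran opposite to Tnfrsf11b both between the libraries and along the KO tertiles. The proteases and phosphatases known from osteoclasts were higher: Acp5 had 413 UMIs in KO cells and 4 in Control cells, a ratio of 67.1 (26.0 to 248), and Ctsk was 3.12 times higher (2.62 to 3.74).

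Of the bone and cartilage genes, 7 of 16 were counted, with 4 higher, 3 lower and a median log2 ratio of 0.70. Spp1, osteopontin, an acidic phosphoprotein that also binds mineral, had 10466 UMIs in KO cells and 0 in Control cells, at least 2268-fold higher against a floor of 3 counts over the library. Cytl1, a secreted protein of cartilage, had 122 CPM in KO cells and 0.899 CPM in Control cells. Sox9 (1.63) and Comp (1.91) were also higher, and Acan was lower (0.587). The homeobox genes Msx2 and Dlx5 were 9.12 and 2.40 times lower in KO cells. The osteoblast gene Ibsp had 0 UMIs in KO cells and 28 in Control cells, and Runx2 had 4.13 CPM in KO cells and 2.80 CPM in Control cells.

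Among cystatin relatives and liver genes of the fetuin locus, 2 of 6 were counted and both were higher, with a median log2 ratio of 3.40. Cst3 had 8378 CPM in KO cells and 1986 CPM in Control cells, a ratio of 4.22 (4.17 to 4.26), and Cst6, cystatin E/M, was 26.6 times higher (15.7 to 48.9). Of other matrix and circulating mineral inhibitors, 9 of 14 were counted, with 3 higher (Spp1, Lum and Dcn), 4 lower and a median log2 ratio of -0.23. Lum had 254 CPM in KO cells and 6.10 CPM in Control cells, and Dcn had 352 and 22.9 CPM. Both are also fibroblast markers. Sost, the Wnt inhibitor sclerostin, was 2.93 times lower, Postn, periostin, 2.82 times, and Eln, the elastin gene, 2.32 times, and Tgm2 was the remaining lower gene.

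Markers of cells that make these proteins elsewhere were checked in the eGFP-positive cells. Of 12 hepatocyte markers, 8 were at 0 in KO cells, albumin (Alb) and the fibrinogen chains among them, and the summed level was 1.40 CPM in KO cells and 0.800 CPM in Control cells. Chondrocyte markers had a summed 116 CPM in KO cells and 82.9 CPM in Control cells, most of it Sox9. Matn1 and Col9a2 were at 0 in both. Col2a1, Col9a1 and Chad, all below 10 CPM, had 25, 24 and 22 UMIs in KO cells and 1 each in Control cells. Acan and Hapln1 were lower in KO cells, at ratios of 0.587 and 0.483. Osteoblast markers had a summed 404 CPM in KO cells and 450 CPM in Control cells, nearly all of it Col1a1, also a fibroblast marker. The other osteoblast markers were below 10 CPM and went both ways. Bglap and Runx2 had 109 and 127 UMIs in KO cells and 5 and 56 in Control cells. Ibsp, Alpl and Sp7 had 0, 24 and 5 UMIs in KO cells and 28, 73 and 10 in Control cells. Endothelial markers had a summed 12.2 CPM in KO cells and 19.9 CPM in Control cells, with Cdh5 and Tie1 at 0. Lymphocyte markers had a summed 3.18 CPM in KO cells and 11.6 CPM in Control cells.

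Cells with at least 2 summed UMIs of the homeobox genes Dlx5, Dlx6 and Msx2 numbered 113 in the KO library and 256 in the Control library. Within the Control library these cells had more Enpp1 than the rest, 44.9 CPM against 22.5 CPM, a ratio of 1.99 (1.62 to 2.44), and more Ank, a ratio of 1.88 (1.63 to 2.16). They held 10 of the 18 Control Fetub UMIs. Tnfrsf11b was 4.24 times lower in them, with 3.53 CPM against 15.0 CPM. Mgp was slightly lower in these cells, at a ratio of 0.893 in the KO library and 0.807 in the Control library. For scale, 13.1% of 8155 genes were at least 1.5-fold higher in these Control cells and 3.97% at least 1.5-fold lower. Within the KO library they had Fetub at a ratio of 2.68 (2.46 to 2.92), Ahsg at 1.81 (1.58 to 2.06), Ank at 1.57 (1.46 to 1.69) and Enpp1 at 1.22 (0.934 to 1.58), with Tnfrsf11b at 1.04 (0.919 to 1.16), where 8.08% of genes were at least 1.5-fold higher and 4.43% lower. Their median contractile share was 1.02% in the KO library, against 2.56% in the other KO cells, and 3.87% in the Control library, against 5.64%. This grouping was added after the data were seen.

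The authors' deposited table of averages per cluster and library, in counts per 10000, gave the same genes by another division of the cells. In that table Mgp was highest in cluster 2 of either library, at 623 in KO cells and 181 in Control cells, and reached 480 in KO cluster 3. In the authors' deposited table Ahsg and Fetub were highest in KO cluster 2, at 1.50 and 2.70. Control cluster 2 there had 0.490 and 0.424, above all other Control clusters. The kept Control cells held only 2 Ahsg UMIs and 18 Fetub UMIs, so these Control averages can rest on few UMIs. How many cells form each cluster is not given there, which also limits the Mgp value of Control cluster 2. By the same authors' deposited table Enpp1 was highest in cluster 4 of both libraries, at 0.873 in KO cells and 0.488 in Control cells, the clusters in which the table also lists the highest Dlx5.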

How the data were processed

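Enzyme-digested aortas were sorted for viable GFP-positive cells and run on the 10x Chromium system, per the labels' protocols. The tools named are Cell Ranger, bcl2fastq and Seurat 2.0, with build mm10, per the submitters' processing notes. Cell calling and alignment settings are not stated in them. The authors deposited raw UMI counts per gene and cell for each library. They also deposited a table of cluster averages in mean counts per 10000 (from the values, each of its 16 columns sums to 10000), used only as the authors' values.

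The members and gene lists were chosen with earlier results of these data known. CPM are counts summed over cells per 1e6 summed UMIs. Levels have exact Poisson, ratios exact conditional binomial and shares of cells Clopper-Pearson 95% intervals, which cover counting error only. A count of 0 was set at a floor of 3 counts (0.0975 CPM in KO cells, 0.150 CPM in Control cells). Called means at least 1.5-fold among genes at 10 CPM or more in at least 1 library. Thinning drew UMIs without replacement. Named list genes differed at least 2-fold, at most 4 in each direction. A gene that the rule for likeness picks is not reported here. Others are given for the pathway, and those past 1.5-fold but under 2-fold were named after their values were seen. Doublets were kept: Scrublet, run in scanpy 1.11.5, marked 8 of 1936 KO cells and 12 of 2042 Control cells, which were left out in an alternative. Ratios and thinning were tested on simulated data. Gene positions came from GENCODE on the same build, in which 27645 of 27998 identifiers matched, and promoters from RefSeq on GRCm38.p6. Protein sequences were not used here.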

Additional observations from a re-analysis of the deposited data

Results flagged for a closer look

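Cells over the mitochondrial limit were left out of all comparisons (146 KO cells and 45 Control cells). In them 4 of the genes had a KO interval above the Control interval. No share over all genes was taken for this, so nothing is read from the count. In the KO cells over the limit Mgp had 24400 CPM, against 4506 CPM in the Control cells over the limit. Ank had 244 CPM in these KO cells and 86.5 CPM in these Control cells. Tnfrsf11b had 124 CPM in these KO cells and 31.9 CPM in these Control cells. Fetub had 87.3 CPM (130 UMIs) in these KO cells and 0 UMIs in these Control cells. Ahsg had 19.5 CPM (29 UMIs, 13.0 to 28.0) in these KO cells and 0 UMIs (up to 16.8 CPM) in these Control cells, where the intervals overlap, and Enpp1 had 30.2 CPM in these KO cells and 31.9 CPM in these Control cells.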

How the results depend on the processing

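Under all 12 alternative settings of the KO to Control comparison, 5 of the 6 genes stayed at least 1.5-fold higher. The ratios ran from 7.08 (cells thinned) to 10.2 (at most 5% mitochondrial UMIs) for Mgp, 237 to 797 for Ahsg, 85.5 (thinned) to 254 (without homeobox-positive cells) for Fetub, 4.83 to 5.46 for Ank, 0.976 to 1.19 for Enpp1 and 10.1 to 12.5 for Tnfrsf11b. Thinning left 6 genes past 1.5-fold between the low and high KO tertiles, with Enpp1 at 1.64. Without homeobox-positive cells, an alternative added after seeing the data, 1 gene in place of 3 was past 1.5-fold between the Control tertiles, with Ank at 1.41 and Enpp1 at 1.33. Bins 1 point wide left the same count of 5 genes. The KO interval of the share of cells lay above the Control interval for 4 genes, and for 5 unthinned (Enpp1 added) or thinned to 2500 UMIs (Mgp added). No share over all genes was taken for these intervals, so nothing is read from the counts. Among the listed genes, 9 were higher and 7 lower at a minimum of 50 CPM, and 23 were higher and 21 lower at a minimum of 10 UMIs, in place of 14 higher and 15 lower, since fewer or more genes were then counted. No difference of 1.5-fold or more changed direction, while ratios near 1 crossed it. Enpp1 (1.06) was 0.976 at most 5% mitochondrial UMIs and 0.992 thinned. The low over high ratio of Tnfrsf11b in Control cells (0.985) ran from 0.767 (thinned) to 1.31 (without homeobox-positive cells). No paired analysis was possible because each genotype had 1 library and the labels carry no replicate numbers. Depth limits the Control values of Ahsg (2 UMIs) and Fetub (18 UMIs), and differences between animals, digestions or sorts cannot be told apart from genotype.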
